A study of Mus musculus with 4 samples.

Results

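In splenic Treg cells with a Treg-specific deletion of Setd2 and in their controls, 10 genes of extracellular purine handling were followed. They encode the ectoenzymes CD39 (Entpd1) and CD73 (Nt5e), the adenosine receptors Adora2a and Adora2b, the adenosine-removing enzyme Ada, the surface peptidase CD26 (Dpp4), the ATP-gated channels P2rx7 and P2rx4, the ADP-ribosyltransferase Art2b and the receptor P2ry10. The 10 genes were taken by name from the 24087 genes with a value. The rule used no measured value, but the names were chosen with earlier results of these data known.

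RNA-seq was performed on Treg cells sorted as CD3+CD4+YFP+ from the spleens of C57BL/6 mice at steady state. KO mice were Foxp3Cre-YFPSetd2f/f, with both Setd2 alleles floxed, and their CTRL littermates were Foxp3Cre-YFPSetd2f/+, with 1 floxed allele. There were 2 libraries per genotype, and each held approximately 1000000 cells pooled from 2 mice. All mice carried the Foxp3-driven Cre-YFP allele, so CTRL cells also expressed Cre and are not wild-type cells. The paper describes 1 deficient Setd2 allele in the Treg cells of such controls. The labels gave neither the age nor the sex of the mice. The paper's general methods describe age-matched mice within a range of weeks, and both sexes, unless noted otherwise. They give no separate age or sex for these libraries. Setd2 encodes the methyltransferase that places H3K36me3. The comparison asks which RNA levels differ when both alleles rather than 1 are deleted in Treg cells.

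ATP is released by activated, stressed or dying cells and acts outside the cell as an alarm signal. CD39 removes phosphates from ATP and ADP to give AMP, and CD73 removes the last phosphate to give adenosine. Treg cells of the mouse carry both enzymes, and the adenosine made at their surface restrains neighbouring T cells through Gs-coupled receptors that raise cyclic AMP. Adenosine is then deaminated to inosine or taken up and phosphorylated. ATP itself opens P2X channels, and in mouse T cells P2X7 can also be opened by ADP-ribosylation when NAD is released.

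Values are FPKM, that is fragments scaled for gene length and library size, as the authors deposited them. At least 29984837 reads stood behind CTRL 1 and at least 32683452 behind KO 2, with the other libraries between them. CTRL 1 stood apart in listing 19100 genes above 0, against 15913 to 16410 in the other libraries. The summed level of Treg markers (Foxp3, Il2ra, Ikzf2, Ctla4 and Tnfrsf18) lay between 1068 and 1178 FPKM in the 4 libraries. The groups overlapped in this sum. For Foxp3 and Il2ra both KO libraries were below both CTRL libraries, for Ikzf2 both were above, and Ctla4 and Tnfrsf18 overlapped. Il2ra averaged 135.9 FPKM in CTRL and 106.4 FPKM in KO. The T cell markers were Cd3e, Cd3d, Cd3g and Cd4. Their sum was 1292 and 1333 FPKM in CTRL, against 1177 and 1248 FPKM in KO, lower in both KO libraries. Markers of other cells were present at lower levels. The 5 myeloid markers summed to 163 and 103 FPKM in CTRL 1 and CTRL 2 and to 202 and 83.2 FPKM in KO 1 and KO 2, and the 3 erythroid markers in the file to 21.2, 3.65, 37.1 and 10.8 FPKM in the same order. Both sums were higher in the first library of each genotype. The 4 B cell markers summed to 18.2 to 31.3 FPKM and the 2 CD8 T cell markers to 8.49 to 11.4 FPKM, and 0 markers in the 6 lists passed the test by limma or limma-voom, with 4 (Cd79b, Cd3g, Il2ra and Ikzf2) at an unadjusted p under 0.05. Setd2 itself was at 23.4 and 25.3 FPKM in CTRL, against 21.3 and 19.5 FPKM in KO, with a log2 fold change of -0.24 (SE 0.076) and an adjusted p of 0.0970. The KO libraries were below the CTRL libraries, but the difference did not pass the threshold. The floxed exons could not be read apart from the rest of the gene in these values. For protein, the paper reports that Setd2 was abrogated and H3K36me3 strongly reduced in splenic KO Treg cells.

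KO was compared with CTRL on log2(FPKM + 1) with limma over 11399 genes with at least 1 FPKM in at least 2 libraries, with Benjamini-Hochberg adjustment over all of them. On this scale the fold change of a weakly expressed gene is understated. Of the 10 genes, 9 could be tested and Adora2b was below the filter. Adora2a rose and Nt5e fell at adjusted p under 0.05, and the other 7 did not pass. Among all genes tested, 9.75% passed in either direction, 5.1% higher and 4.65% lower in KO. Both KO libraries lay above both CTRL libraries for 4 of the 9 genes (Adora2a, Entpd1, Dpp4 and Ada) and below them for 4 (Nt5e, P2ry10, P2rx7 and P2rx4), and the groups overlapped for Art2b. Of all genes tested, 29% had both KO libraries above and 35.5% had both below, so that groups did not overlap for 64.5%. Unadjusted p was under 0.05 for 5 of the 9, against 34.7% of all genes. The median log2 fold change of the 9 genes was -0.19, and that of all genes was -0.022. The p-values rest on the spread between 2 pooled libraries per genotype, which limma moderated toward that of other genes at similar levels.

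**Figure D1:**
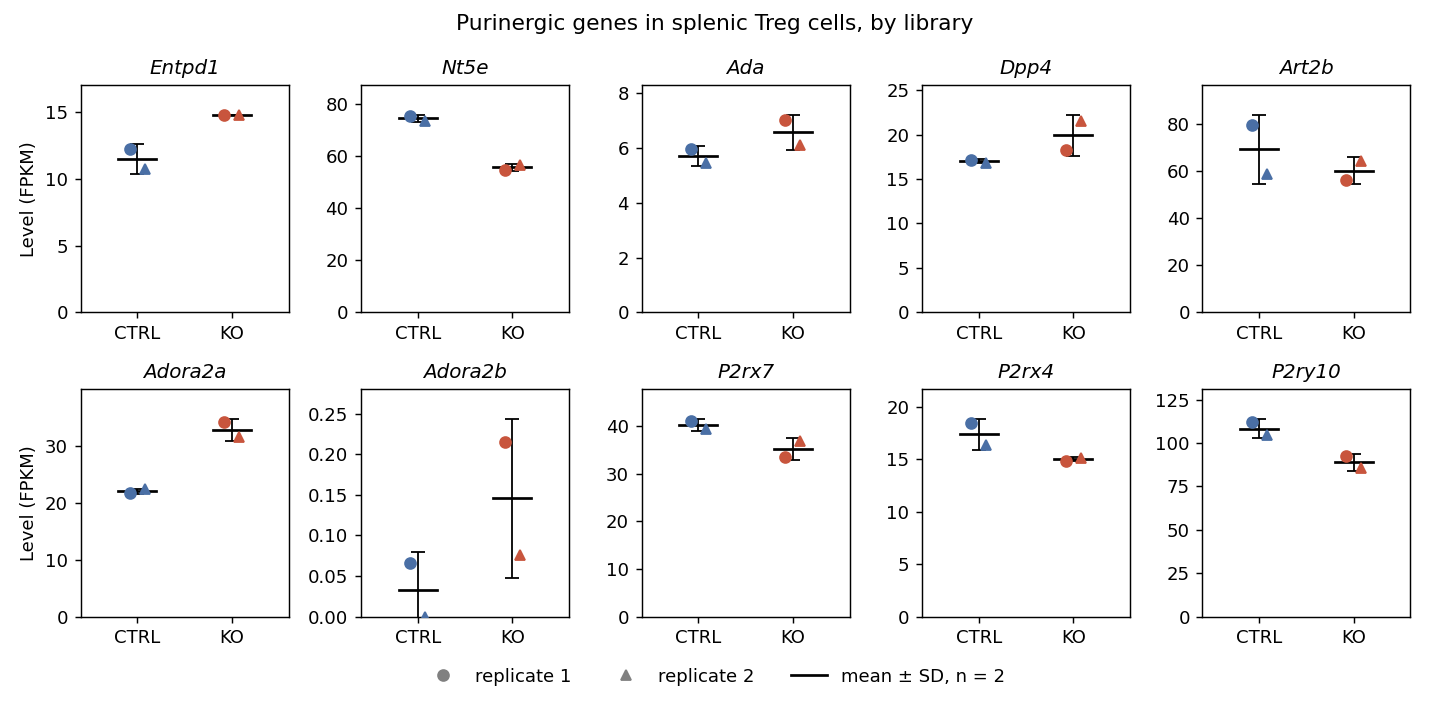
Level of each of the 10 genes in FPKM (vertical axis, starting at 0, scaled per gene) in the CTRL and KO libraries, with circles for replicate 1, triangles for replicate 2, and bars for the mean ± SD (n = 2). KO libraries stood clear above CTRL for Adora2a (34.2 and 31.5 against 21.8 and 22.4 FPKM) and clear below for Nt5e (54.8 and 56.6 against 75.6 and 73.6 FPKM), while Art2b overlapped.

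Of the pair of enzymes that turn ATP into adenosine, Nt5e fell in KO, and Entpd1 had higher values in KO without passing the test. Nt5e (CD73, ENSMUSG00000032420, chr9:88327197-88372092 on GRCm38, plus strand) was at 75.6 FPKM in CTRL 1, 73.6 FPKM in CTRL 2, 54.8 FPKM in KO 1 and 56.6 FPKM in KO 2. Both KO libraries were low, and the gap between genotypes was much wider than the gap between libraries of a genotype. At least 6921 reads stood behind each of these values. The mean fell by 25.3%, from 74.6 ± 1.39 to 55.7 ± 1.32 FPKM (SD, n = 2 per group). The log2 fold change was -0.42 (SE 0.054, 95% interval -0.55 to -0.28) and the adjusted p was 0.0346. In bulk RNA, fewer cells that express the gene and less RNA per cell cannot be told apart. The call was lost when any 1 of the 4 libraries was left out, with log2 fold changes of -0.44 to -0.39 and adjusted p of 0.101 to 0.140, and when no filter on low values was applied (adjusted p = 0.0860).

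Entpd1 (CD39, ENSMUSG00000048120, chr19:40612366-40741602, plus strand) was at 12.3 and 10.7 FPKM in the CTRL libraries 1 and 2, against 14.8 FPKM in each of the KO libraries. Both KO libraries were above both CTRL libraries, and the KO libraries were closer to each other than the CTRL libraries were. The means were 11.5 ± 1.09 and 14.8 ± 0.0217 FPKM (SD, n = 2 per group). The log2 fold change was 0.34 (SE 0.084, 95% interval 0.12 to 0.56). The adjusted p of 0.0631 missed the threshold. Over the 10 other settings with all libraries it ran from 0.0386 to 0.128, and it was under 0.05 in 2 of them, with only genes above a mean of 5 FPKM tested (0.0495) and with limma-voom on recovered reads (0.0386). B cells and myeloid cells also carry CD39, and their markers are given above. The myeloid sum and Entpd1 were both higher in CTRL 1 than in CTRL 2, and in KO the myeloid sum was higher in KO 1 while Entpd1 was at 14.8 FPKM in both libraries. The B cell marker Cd79b was at 10.9 and 12.8 FPKM in CTRL and 16.0 and 13.7 FPKM in KO 1 and KO 2, above CTRL in both KO libraries as Entpd1 was (unadjusted p = 0.0456 and adjusted p = 0.136 by limma). The part of such cells in the Entpd1 level was not tested.

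CD73 acts on what CD39 makes, so the level of one per level of the other was also read. In FPKM, Nt5e stood above Entpd1 by a factor of 6.16 in CTRL 1 and 6.87 in CTRL 2, but of 3.71 in KO 1 and 3.83 in KO 2. The ratio was lower in both KO libraries, with means of 6.52 ± 0.498 and 3.77 ± 0.0838 (SD, n = 2 per group). That gap follows from Nt5e lying lower and Entpd1 higher in both KO libraries and is no separate result. Nt5e remained the more abundant RNA per length in all 4 libraries.

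Entpd1 has 2 transcript starts in RefSeq, and FPKM of the whole gene sums the transcripts of both. The bases from 130 to 20 before each start are shown so that both can be compared, read from RefSeq on GRCm38.p6 along the plus strand, with motif matches in capitals. The first window is chr19:40612236-40612346 and the second is chr19:40659640-40659750.
Entpd1 first start: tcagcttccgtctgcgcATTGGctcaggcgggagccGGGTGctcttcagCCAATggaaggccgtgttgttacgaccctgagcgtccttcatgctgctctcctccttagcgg
Entpd1 second start: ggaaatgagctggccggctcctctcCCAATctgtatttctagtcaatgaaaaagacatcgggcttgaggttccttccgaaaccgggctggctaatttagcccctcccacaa
Both strands were searched for 6 motifs. The letters were GGGCGG for a GC box and CCAAT for the box of that name. For the core of a cyclic AMP response element they were TGACG, for a TATA box TATAAA. An ETS core was searched as CCGGAA and the box bound by Krüppel-like factors as CACCC. The first window held 2 CCAAT boxes, 1 on each strand, and 1 box of the last kind, and the second window held 1 CCAAT box. Of all 32851 RefSeq windows of this length, 20.4% held a CCAAT box, 29.7% a Krüppel-like box, 23.8% a GC box, 10.2% the cyclic AMP core, 6.69% an ETS core and 6.21% a TATA box. A match describes these letters only. RefSeq promoter entries were found for 9 of the 10 genes, with none for Adora2a.

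Of the receptors that read adenosine, only Adora2a was measured above the filter. Adora2a, the main Gs-coupled adenosine receptor of T cells (ENSMUSG00000020178, chr10:75316877-75334784, plus strand), was at 21.8 FPKM in CTRL 1, 22.4 FPKM in CTRL 2, 34.2 FPKM in KO 1 and 31.5 FPKM in KO 2. Both KO libraries were high and the groups were well apart. The mean rose by 48.9%, from 22.1 ± 0.434 to 32.9 ± 1.92 FPKM (SD, n = 2 per group). On the log2 scale the difference was 0.55 (SE 0.067, 95% interval 0.38 to 0.72), with an adjusted p of 0.0346. Among the 9 genes tested this was the largest difference in size. The call was lost when any 1 of the 4 libraries was left out, with log2 fold changes of 0.49 to 0.61 and adjusted p of 0.0871 to 0.140, and without the filter on low values (adjusted p = 0.0860).

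Adora2b, a Gs-coupled receptor of lower affinity (ENSMUSG00000018500, chr11:62248984-62266453, plus strand), was close to 0 throughout. It was at 0.0661 FPKM in CTRL 1, 0 FPKM in CTRL 2, 0.215 FPKM in KO 1 and 0.0765 FPKM in KO 2. These values rest on at least 4, 0, 14 and 5 reads, and a count of 0 in CTRL 2 allows up to 3 reads, or 0.0461 FPKM, for counting error alone. No difference could be read at this depth. The other adenosine receptors, Adora1 and Adora3, were also below the filter, so Adora2a was the only 1 of 4 receptors tested.

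Ada and Dpp4 had higher values in both KO libraries, and neither passed the test. Ada, which deaminates adenosine (ENSMUSG00000017697, chr2:163726584-163750239, minus strand), was at 5.96 and 5.45 FPKM in the CTRL libraries 1 and 2, against 7.04 and 6.12 FPKM in KO 1 and KO 2. The KO values were both above the CTRL values, but KO 2 exceeded CTRL 1 only slightly. Its log2 fold change was 0.17 (SE 0.10, 95% interval -0.081 to 0.43, adjusted p = 0.274). Dpp4, a dipeptidyl peptidase of the cell surface that is known in humans to anchor adenosine deaminase (ENSMUSG00000035000, chr2:62330073-62412231, minus strand), was at 17.1 and 16.9 FPKM in CTRL, against 18.3 and 21.6 FPKM in KO 1 and KO 2. The KO libraries were above CTRL, with KO 2 the highest, and the means were 17.0 ± 0.201 and 19.9 ± 2.32 FPKM (SD, n = 2 per group). Its log2 fold change was 0.21 (SE 0.093, 95% interval -0.024 to 0.45, adjusted p = 0.177), and it was 0.10 without KO 2 and 0.33 without KO 1. An antisense gene, Gm13561, overlaps 232 exonic bases of Dpp4 on the other strand, and since the use of strand in counting was not stated, part of the Dpp4 reads could be its own.

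P2rx7 and P2rx4, the ATP-gated channels of this set, lie next to each other on chromosome 5, with 16111 bases between them. P2rx7 (ENSMUSG00000029468, chr5:122643911-122691432, plus strand), the channel that needs high ATP and at which prolonged opening kills Treg cells, was at 41.2 and 39.4 FPKM in the CTRL libraries 1 and 2, against 33.7 and 36.9 FPKM in KO 1 and KO 2. P2rx4 (ENSMUSG00000029470, chr5:122707544-122729738, plus strand), which opens at lower ATP, was at 18.4 and 16.3 FPKM in CTRL, against 14.9 and 15.1 FPKM in KO. Each KO library was below each CTRL library for both channels. For P2rx7 the log2 fold change was -0.19 (SE 0.070, 95% interval -0.37 to -0.0090), with an unadjusted p of 0.0428 and an adjusted p of 0.131. That of P2rx4 was -0.20 (SE 0.080, 95% interval -0.40 to 0.0064, adjusted p = 0.153). Neither passed the threshold in any setting tried. The ratio of P2rx7 to P2rx4 in FPKM was 2.24 and 2.41 in CTRL and 2.26 and 2.44 in KO, with the groups overlapping. The microRNA gene Mir8115 shares 119 exonic bases with P2rx7 on the same strand.

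Since the channels are neighbours and both had KO values below the CTRL values, their promoter windows are shown side by side, from the same RefSeq source and positions (chr5:122643797-122643907 for the first start of P2rx7 and chr5:122707414-122707524 for P2rx4, plus strand), with motif matches in capitals.
P2rx7 first start: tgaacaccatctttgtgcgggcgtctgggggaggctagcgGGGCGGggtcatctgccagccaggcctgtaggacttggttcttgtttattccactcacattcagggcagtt
P2rx4: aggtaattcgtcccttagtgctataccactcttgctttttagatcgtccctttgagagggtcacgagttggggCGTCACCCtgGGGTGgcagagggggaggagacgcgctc
P2rx7 held 1 GC box. P2rx4 held 1 cyclic AMP core, read on the other strand, and 2 Krüppel-like boxes, and the core shares 2 bases with 1 of these boxes. None of the 6 motifs was found in both windows.

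Adora2a and P2rx7 are the receptors for adenosine and for ATP with the highest levels in these cells. The ratio of Adora2a to P2rx7 was 0.528 in CTRL 1 and 0.568 in CTRL 2. In KO 1 and KO 2 it was 1.02 and 0.853. The groups did not overlap, which follows from Adora2a lying higher and P2rx7 lower in both KO libraries and is no separate result.

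Art2b, which attaches ADP-ribose from NAD to surface proteins including P2X7 (ENSMUSG00000030651, chr7:101576970-101585600, minus strand), had the widest gap between libraries of a genotype among the 9 genes tested. It was at 79.8 FPKM in CTRL 1, 58.9 FPKM in CTRL 2, 56.3 FPKM in KO 1 and 64.3 FPKM in KO 2. CTRL 1 was high and the other 3 libraries were close together, so the groups overlapped. The log2 fold change was -0.19 (SE 0.16, 95% interval -0.59 to 0.21, adjusted p = 0.445), and it was 0.029 without CTRL 1 (adjusted p = 0.883). A difference could not be detected with this spread. Its neighbour Art2a, 16104 bases away, is annotated by GENCODE as a polymorphic pseudogene, and 0.996% of the 100-base stretches of Art2b also occur elsewhere, most often in that neighbour. Art2a was at 19.4, 15.9, 18.5 and 18.2 FPKM in CTRL 1, CTRL 2, KO 1 and KO 2, and the ratio of Art2b to Art2a was 4.10 and 3.70 in CTRL and 3.05 and 3.53 in KO.

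P2ry10 bears the name of a nucleotide receptor but is known to respond to lysophosphatidylserine. It was the most abundant of the 10 RNAs per length (ENSMUSG00000050921, chrX:107088492-107104974, plus strand), with 112.3 and 104.3 FPKM in the CTRL libraries 1 and 2, against 92.3 and 85.3 FPKM in KO 1 and KO 2. Both KO libraries were below both CTRL libraries, with means of 108.3 ± 5.62 and 88.8 ± 4.93 FPKM (SD, n = 2 per group). The log2 fold change was -0.28 (SE 0.069, 95% interval -0.46 to -0.11) and the adjusted p of 0.0621 missed the threshold. Over the 10 other settings with all libraries it ran from 0.0346 to 0.121 and was under 0.05 in 3, among them 0.0419 after quantile normalization and 0.0424 with limma-voom. The related P2ry10b lies 43952 bases away, and 2.05% of the 100-base stretches of P2ry10 also occur in other genes, most often in P2ry10b.

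**Figure D2:**
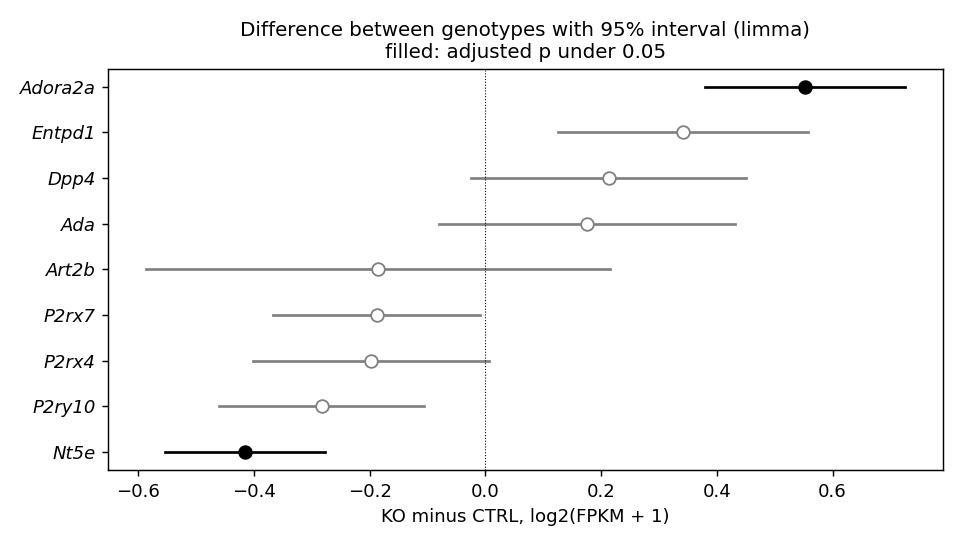
Difference KO minus CTRL on the log2(FPKM + 1) scale (horizontal axis) for the 9 genes tested, with points for the limma estimate, lines for its 95% interval, and filled points for adjusted p under 0.05. Adora2a at 0.55 and Nt5e at -0.42 are filled, and the interval of Art2b, from -0.59 to 0.21, is the widest.

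Ordered by mean level in CTRL, the genes ran from P2ry10 (108.3 FPKM) through Nt5e (74.6), Art2b (69.4), P2rx7 (40.3), Adora2a (22.1), P2rx4 (17.4), Dpp4 (17.0), Entpd1 (11.5) and Ada (5.71) to Adora2b (0.0331 FPKM). The libraries of Nt5e and Art2b overlapped in both genotypes. Those of P2rx4 and Dpp4 overlapped in CTRL, while in KO Dpp4 stood above P2rx4 in both libraries. P2rx7 and Adora2a were apart in CTRL but overlapped in KO. Against the 11399 genes tested, P2ry10 had a higher mean level than 93.9% of them, Nt5e and Art2b than 89.7%, P2rx7 than 80.8%, Adora2a than 73.1% and Ada than 30.9%. The gene lengths behind FPKM were not stated, so this order rests on the lengths the authors used.

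The surrounding pathway was read from 12 lists of 80 genes, of which 79 were in the file and 49, the 9 genes above included, could be tested. Of the 49, 3 rose (Adora2a, Adk and Prkar1a) and 3 fell (Nt5e, Entpd5 and Art3), or 12.2%. Without the 10 genes, 40 were tested, of which 2 rose and 2 fell, or 10.0%. Both shares are near the 9.75% of all genes tested, and the median log2 fold change of the 49 was -0.014.

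Among enzymes that act on nucleotides, 3 of 8 ectonucleotidases were tested and only Nt5e passed. The intracellular and secreted NTPDases had 3 of 4 genes tested and 1 lower. This was Entpd5, a nucleoside diphosphatase of the endoplasmic reticulum, which fell from 13.2 and 13.8 FPKM in CTRL to 9.96 and 10.4 FPKM in KO, with a log2 fold change of -0.37 (SE 0.070) and an adjusted p of 0.0423. Entpd6, the most abundant of that list per length, averaged 17.7 ± 0.998 FPKM in CTRL and 14.3 ± 0.484 FPKM in KO (SD, n = 2 per group, a log2 difference of -0.28, adjusted p = 0.0677). The enzymes of extracellular NAD had 8 of 9 genes in the file, 4 tested and 1 lower. This was Art3, a member of the ADP-ribosyltransferase family, at 2.32 and 2.71 FPKM in CTRL and 1.09 and 0.956 FPKM in KO, with a log2 fold change of -0.80 (SE 0.13) and an adjusted p of 0.0376. Art2b was the most abundant of the list. Art3 stood near the filter of 1 FPKM in KO, with at least 53 reads in each library. It overlaps Cxcl10 on the other strand by 133 exonic bases, so its value is uncertain where counting did not use strand.

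The list for removal of adenosine and salvage of purines had the most genes in which KO stood above CTRL. It also held Dpp4, a peptidase, and Ahcy, so not every gene in it acts in removal or salvage. Of its 7 genes tested, Ada and Dpp4 included, 6 had both KO libraries above both CTRL libraries, against 29% of all genes, the median log2 fold change was 0.21, and 1 passed the threshold. Adk, which phosphorylates adenosine to AMP inside the cell, rose from 24.8 and 25.1 FPKM in CTRL to 33.0 and 32.1 FPKM in KO, with a log2 fold change of 0.37 (SE 0.056) and an adjusted p of 0.0364. Aprt, which makes AMP from adenine and was the most abundant of the list, was at 71.1 and 69.7 FPKM in CTRL and 81.0 and 84.8 FPKM in KO (a log2 difference of 0.23, adjusted p = 0.0591). The ratio of Adk to Ada, the enzymes that compete for adenosine inside the cell, was 4.16 and 4.61 in CTRL and 4.68 and 5.25 in KO, so Adk was the more abundant per length in all 4 libraries. Of the nucleoside transporters, 4 of 6 were tested and 0 passed by limma or limma-voom (0 with an unadjusted p under 0.05). Slc28a2, a concentrative transporter and the most abundant of them, was at 52.9 and 52.7 FPKM in CTRL and 47.0 and 49.2 FPKM in KO (a log2 difference of -0.13, adjusted p = 0.165).

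No P2X or P2Y receptor passed by limma or limma-voom. Only P2rx7 and P2rx4 of 7 P2X genes were tested, 1 of them with an unadjusted p under 0.05. Of 7 P2Y genes, 2 were tested, and 0 had an unadjusted p under 0.05. P2ry13, the more abundant of them, was at 4.27, 1.99, 3.87 and 1.56 FPKM in CTRL 1, CTRL 2, KO 1 and KO 2 (log2 fold change -0.17, adjusted p = 0.799). It was higher in the first library of each genotype, as were the myeloid and erythroid markers, and their part in its level was not tested. The receptors of lysophosphatidylserine related to P2ry10 were all 4 tested, with a median log2 fold change of -0.33, 0 calls by limma, 1 by limma-voom (P2ry10) and 2 with an unadjusted p under 0.05. Relative to Gpr174, a receptor for the same lipid, P2ry10 was at a ratio of 3.14 and 3.07 in CTRL and 2.58 and 2.50 in KO, with the groups apart. Gpr174 itself was at 35.8 and 34.0 FPKM in CTRL and 35.8 and 34.1 FPKM in KO (log2 fold change 0.0025, 95% interval -0.16 to 0.16). The gap in the ratio follows from the lower P2ry10 values in KO and is no separate result. The ratio of P2ry10 to P2ry10b was 25.0 and 27.5 in CTRL and 38.8 and 24.3 in KO, with the groups overlapping.

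The lists on either side of the receptors held 1 call. Of the genes for ATP release, 4 of 6 were tested, with 0 calls by limma, 1 by limma-voom (Lrrc8a, higher, which shares exons with another gene model on the same strand) and 1 with an unadjusted p under 0.05. Slc17a9, the vesicular nucleotide transporter and the most abundant of them, was at 56.5 and 61.2 FPKM in CTRL and 43.4 and 53.9 FPKM in KO (a log2 difference of -0.28, adjusted p = 0.164). Of the cyclic AMP genes downstream of Gs-coupled receptors, 9 of 10 were tested and 1 passed. Prkar1a, a regulatory subunit that holds protein kinase A inactive until cyclic AMP binds, was also the most abundant, and rose from 146.7 and 138.3 FPKM in CTRL to 177.3 and 174.2 FPKM in KO, with a log2 fold change of 0.30 (SE 0.057) and an adjusted p of 0.0424. Of the genes that act downstream of P2X7, 6 of 7 were tested, with 0 calls by limma, 1 by limma-voom (Casp1, higher) and 3 with an unadjusted p under 0.05. Casp1, which cleaves the interleukin-1 beta precursor, was the most abundant of them. It was at 46.8 and 41.5 FPKM in CTRL and 58.8 and 54.7 FPKM in KO. Its log2 difference was 0.36 (adjusted p = 0.0553 by limma). The calls of Entpd5, Art3, Adk and Prkar1a were lost when any 1 of the 4 libraries was left out, with adjusted p of 0.110 to 0.158 among them, and without the filter on low values. Those of Adk, Entpd5 and Prkar1a were also lost without the variance trend, and those of Entpd5 and Prkar1a after quantile normalization.

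**Figure D3:**
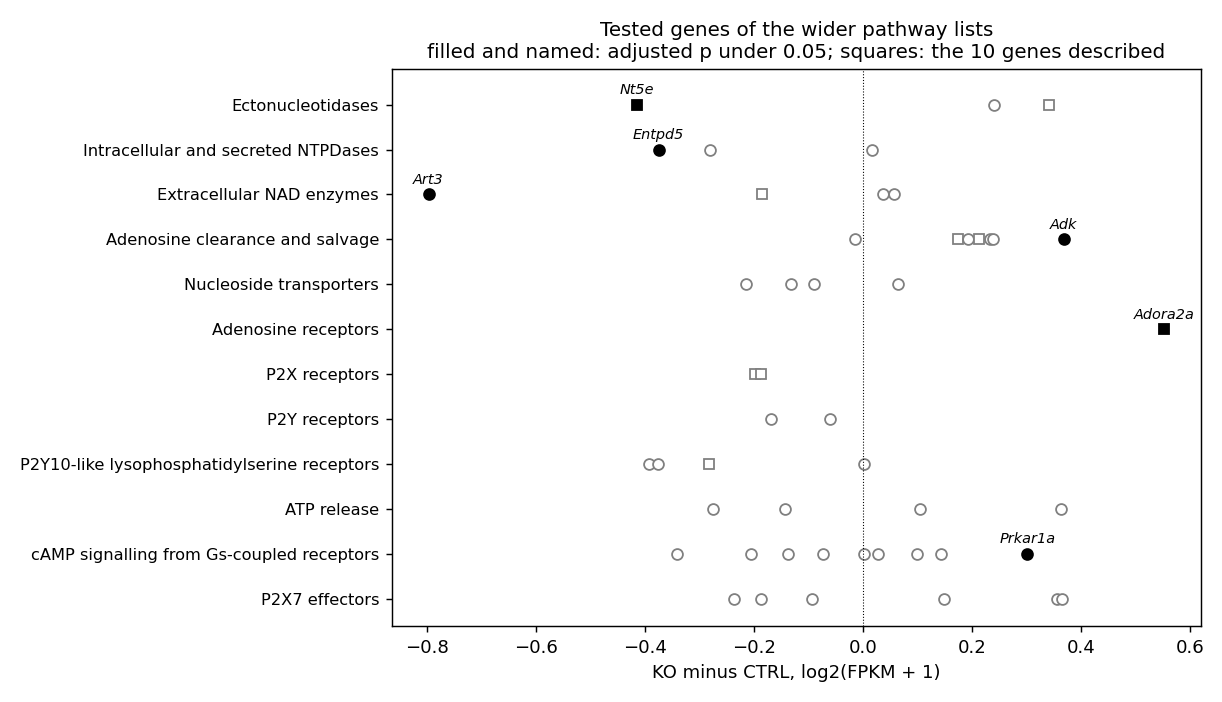
Difference KO minus CTRL on the log2(FPKM + 1) scale (horizontal axis) of every tested gene in the 12 lists, 1 row per list, with squares for the 10 purinergic genes described and filled, named points for adjusted p under 0.05. The 6 filled points are Nt5e, Entpd5 and Art3 to the left of 0 and Adk, Adora2a and Prkar1a to the right, and 6 of the 7 points for adenosine clearance and salvage lie right of 0.

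**Figure D4:**
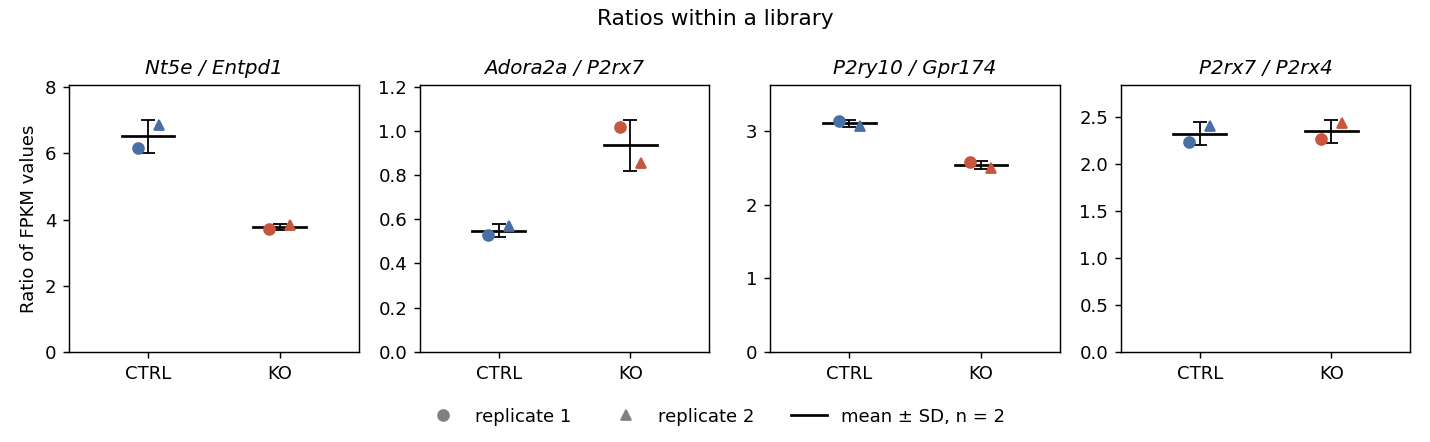
Ratios of FPKM values within each library (vertical axis, starting at 0) for 4 gene pairs, with circles for replicate 1, triangles for replicate 2, and bars for the mean ± SD (n = 2). The ratio of Nt5e to Entpd1 was 6.16 and 6.87 in CTRL and 3.71 and 3.83 in KO, without overlap. The gaps for Nt5e to Entpd1 and for Adora2a to P2rx7 follow from the opposite directions of their genes. That for P2ry10 to Gpr174 follows from the lower P2ry10 values in KO. The ratio of P2rx7 to P2rx4 overlapped between genotypes.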

How the data were processed

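Poly(A) RNA of sorted splenic Treg cells was made into 4 libraries and sequenced in pairs of 150 bp. The submitters' processing notes name HISAT2 2.2.1, featureCounts 2.0.1 and edgeR 3.34.0 and the build mm10. The authors deposited FPKM values per gene. How strand and multi-mapped reads were treated, and which gene lengths and annotation version were used, is not given in the sources used here. Columns headed WT were taken as the CTRL libraries, matched by number.

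Low FPKM values stood in whole-number ratios, from which the least number of reads was recovered for 19887 of 19888 genes above 0 (tolerance 0.002). These are lower bounds. Since FPKM are not counts, the study's edgeR test was not run. KO was compared with CTRL by limma 3.58.1 in R 4.3.3 (lmFit, then eBayes with a trend in intensity). Values were log2(FPKM + 1), and genes below 1 FPKM in more than 2 libraries were left out. Two-sided p-values were used, with Benjamini-Hochberg adjustment over all 11399 genes and a threshold of 0.05. The median standard error was 0.087 on the log2 scale. The fit was tested on simulated data with changes larger than those of Nt5e and Adora2a. That test does not show how the fit performs on changes of their size.

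Alternatives were a pseudocount of 0.1, no filter, a filter on a mean above 5 FPKM, scaling to the same sum, median-ratio scaling, quantile normalization, no variance trend, robust eBayes, the replicate number as a block, limma-voom on recovered reads, and leaving out each library. Named were the 10 genes, Setd2, and in each of the 12 pathway lists the genes past the threshold and the most abundant one. Art2a, P2ry10b and Gpr174 were added as relatives of a named gene after their values were seen, as were the markers and the genes called by limma-voom alone. The 10 genes and all lists (12 pathway lists and 6 marker lists) were chosen with earlier results of these data known. Gene positions came from GENCODE vM21 on GRCm38, and promoter windows from RefSeq on GRCm38.p6. Python 3.11.15 with numpy 2.4.6, pandas 2.3.3 and matplotlib 3.10.9 was used outside R.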

Additional observations from a re-analysis of the deposited data

How the results depend on the processing

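Of 126 refitted fold changes of the 9 genes tested, 110 kept their direction and their side of the threshold, and 1 reversed. This was Art2b, whose log2 fold change was 0.029 without CTRL replicate 1 (adjusted p = 0.883). With all 4 libraries, the absence of a filter moved the calls most. With no filter, 0 of the 10 genes, 0 of the 79 pathway genes and 0 of all 19888 genes passed in either direction by limma, although 4463 genes had an unadjusted p under 0.05. With only genes above a mean of 5 FPKM, 2 of the 10 genes and 6 pathway genes were higher. With limma-voom on recovered reads, 2 of the 10 genes were higher and 2 lower, 6 pathway genes were higher, and 1027 of all genes were lower, compared with 530. Quantile normalization gave 2 lower among the 10 genes. Without the variance trend, 1 pathway gene and 315 of all genes were higher. The cause of these shifts was not tested. Scaling moved the share of higher calls among all genes from 52.3% to 58.1% (median-ratio) or 46.8% (same sum), and changed neither call among the 10 genes.

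Leaving out 1 library at a time left 0 of the 10 genes and 0 of the pathway genes past the threshold in either direction, where the lone library of a genotype was assumed to vary like the other genotype. Of all genes, 0 to 1 were higher and 0 to 1 lower, while 2697 to 2986 had an unadjusted p under 0.05. The log2 fold change stayed between -0.44 and -0.39 for Nt5e and between 0.49 and 0.61 for Adora2a, while that of Art2b ran from -0.40 to 0.029.

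The labels tie no replicate number to a litter, batch or day. Deviations of same-numbered libraries from their group means correlated across genes at 0.34 (Pearson) and 0.055 (Spearman). With the replicate block, 2 of the 10 genes were lower (Nt5e and P2ry10, the latter at an adjusted p of 0.0346), 6 pathway genes were higher, and 968 genes were higher and 805 lower among all.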
